A study of Mus musculus with 13 samples.

Results

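The Ifi200 and Aim2 cluster is a run of PYHIN genes on mouse chromosome 1, and 5 of its genes were examined for the histone mark H3K27ac: Aim2, Ifi204, Ifi205, Ifi203 and Mnda. They were chosen by name, and a gene's signal was taken from every called stretch of H3K27ac, or island, that touched its mm10 span or 1 kb on either side. The 5 are among 21887 annotated protein-coding genes, of which 14658 had an island in at least 1 library. From Aim2 to Ifi205 the cluster ran over chr1:173348547-174032755, a window of 684.2 kb that held 212 of the 404404 islands in the 13 libraries, 105 of them touching the 5 genes. In mm10, Aim2 is annotated at chr1:173349547-173466040, Ifi204 at chr1:173747293-173767069, Mnda at chr1:173896339-173913087, Ifi203 at chr1:173920400-173942866 and Ifi205 at chr1:174011998-174031755. Aim2 is read from the plus strand, and Mnda, Ifi203 and Ifi205 from the minus strand.

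PYHIN proteins join a pyrin domain, which recruits signalling partners, to a HIN domain, which binds DNA. AIM2 binds double-stranded DNA in the cytosol and assembles an inflammasome with the adaptor ASC and caspase-1, while IFI204 is a mouse counterpart of human IFI16 that signals through STING. Many genes of the family are induced by interferons in macrophages, and H3K27ac is a mark of active promoters and enhancers.

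The libraries were H3K27ac ChIP-seq of bone marrow-derived macrophages (BMDM) of C57BL/6 mice on day 7 of differentiation in L929-conditioned medium, a source of macrophage colony-stimulating factor. In the cytokine experiment cells received IL-4 at 10 ng/ml for 2 h or 4 h, IFNg at 100 ng/ml for 2 h or 4 h, or IFNg plus IL-4 for 2 h or 4 h, or were left untreated. In the knockdown experiment cells carried shJunB, shCEBP-beta or a scramble hairpin, and each was given IFNg at 100 ng/ml for 4 h or no treatment. The cytokine experiment asks how IFNg and IL-4 act together on macrophage chromatin. The knockdown experiment, in which no library had IL-4, asks what the transcription factors JunB and C/EBP-beta contribute. There was 1 library per condition, the labels name no hairpin for the cytokine experiment, and nothing in them says whether libraries came from separate cultures, so the spread between libraries may be technical.

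Total depth was 14.3 to 37.4 M reads, of which islands held 77.1 to 80.0% in the 7 cytokine libraries and 65.1 to 73.0% in the 6 knockdown libraries. Islands covered all 8 macrophage markers in all 13 libraries, with a summed level of 38297 to 57967 normalised reads in the 7 libraries with IFNg and 41498 to 57263 in the 6 without. Of 7 T cell markers 3 to 4 had an island per library, with Cd3d, Cd4 and Lck in all 13 and Cd3g and Cd8a in none, and a sum of 1373 to 2899 normalised reads with IFNg and 1587 to 9732 without. Of 5 B cell markers 2 to 4 had one, with Cd79a and Ms4a1 in all 13 and Pax5 in none, and a sum of 1280 to 6416 with IFNg and 1991 to 7474 without. Of 6 neutrophil markers 1 to 3 had one, with Ly6g, S100a9 and Mpo in none, and a sum of 157 to 1133 with IFNg and 156 to 1941 without. Mast cell and basophil markers had 0 to 2 of 6, with Fcer1a and Mcpt8 in none, and fibroblast markers 0 to 1 of 4, with Col1a2, Pdgfra and Dcn in none. Of 6 dendritic cell markers 5 had an island in all libraries, Siglech being the exception, with sums that overlapped, 8204 to 20826 normalised reads with IFNg and 6714 to 10035 without. At IFNg 4 h 4 of them were at least 2-fold higher (Zbtb46, Xcr1, Clec9a and Itgax) and 2 lower (Flt3 and Siglech) than in untreated cells. The part of all these markers in the results was not tested. H3K27ac at Junb and Cebpb does not check the knockdown: with and without IFNg, Junb had 7062 and 5320 normalised reads in shJunB cells, against 6446 and 6233 in scramble cells, and Cebpb had 12204 and 2976 in shCEBP-beta cells, against 4655 and 3014 in scramble cells.

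Promoter sequences were printed for the members and for Ifi207, the relative with the most signal, because these genes separate into promoters acetylated in all libraries and promoters acetylated mainly with IFNg. RefSeq (GRCm38.p6) gave a window of 250 bases before to 50 after the start for 4 of the 5 members, in 5 promoters, and Ifi204 is only named. A second Ifi203 window, chr1:173942623-173942922, is not printed: it held no ISRE core but an IRF core, and had an island in 2 libraries, both with IFNg. They run 5′ to 3′ along the gene's own strand: Aim2 at chr1:173420354-173420653 on the plus strand, Ifi205 at chr1:174031706-174032005, Ifi203 at chr1:173942443-173942742, Mnda at chr1:173912997-173913296 and Ifi207 at chr1:173741760-173742059, all 4 on the minus strand. Capitals mark matches on either strand to the searched motifs.
Aim2: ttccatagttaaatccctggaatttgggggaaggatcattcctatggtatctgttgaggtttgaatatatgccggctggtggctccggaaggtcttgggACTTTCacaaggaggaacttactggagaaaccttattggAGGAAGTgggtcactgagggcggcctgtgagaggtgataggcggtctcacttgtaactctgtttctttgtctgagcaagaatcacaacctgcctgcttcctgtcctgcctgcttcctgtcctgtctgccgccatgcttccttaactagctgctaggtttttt
Ifi205: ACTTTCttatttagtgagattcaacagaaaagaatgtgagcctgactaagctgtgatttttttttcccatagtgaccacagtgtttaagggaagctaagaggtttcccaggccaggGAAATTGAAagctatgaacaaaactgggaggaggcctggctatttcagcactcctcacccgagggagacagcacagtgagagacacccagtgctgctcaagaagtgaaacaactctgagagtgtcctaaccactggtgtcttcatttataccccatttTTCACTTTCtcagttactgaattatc
Ifi203: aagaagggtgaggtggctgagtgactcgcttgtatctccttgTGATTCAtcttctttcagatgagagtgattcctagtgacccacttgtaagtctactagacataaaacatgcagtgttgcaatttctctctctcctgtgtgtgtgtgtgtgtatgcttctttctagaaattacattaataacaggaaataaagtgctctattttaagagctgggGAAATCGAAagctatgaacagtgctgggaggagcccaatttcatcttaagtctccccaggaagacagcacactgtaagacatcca
Mnda: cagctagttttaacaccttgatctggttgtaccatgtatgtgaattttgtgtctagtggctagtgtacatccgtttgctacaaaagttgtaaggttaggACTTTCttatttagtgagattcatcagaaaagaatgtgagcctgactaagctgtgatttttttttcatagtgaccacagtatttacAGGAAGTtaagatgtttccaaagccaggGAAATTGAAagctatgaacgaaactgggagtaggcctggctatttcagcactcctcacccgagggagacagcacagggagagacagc
Ifi207: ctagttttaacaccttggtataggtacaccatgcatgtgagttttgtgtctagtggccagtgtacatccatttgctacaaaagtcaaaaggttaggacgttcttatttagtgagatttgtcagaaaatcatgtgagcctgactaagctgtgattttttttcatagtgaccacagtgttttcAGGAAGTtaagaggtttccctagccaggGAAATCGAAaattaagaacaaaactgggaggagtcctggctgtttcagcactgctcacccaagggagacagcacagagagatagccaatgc

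The motifs were GAAANNGAA, the core of the interferon response element (ISRE), GAAAGT, a core bound by interferon regulatory factors, TTCNNNGAA, the GAS element of STAT dimers, AGGAAGT, the core of PU.1, TGANTCA of AP-1 and TTGCGCAA of C/EBP. An ISRE core stood 134 bases before the start of Ifi205, 35 before that of Ifi203, 37 before that of Mnda and 41 before that of Ifi207, and a further one on the opposite strand began 24 bases after the start of Ifi205, overlapping an IRF core. The Aim2 window held no ISRE core, but an IRF core 151 bases before the start and a PU.1 core 112 bases before it. Over the 14 promoters of the cluster's genes, 10 held an ISRE core, against 8.56% of all 32851 RefSeq promoters of the same length. The IRF core was in 6 of the 14, against 14.3% of all, and PU.1 in 4, against 9.35%. AP-1 was in 5 of the 14, against 7.81% of all, GAS in 1, against 8.3%, and C/EBP in 0, against 0.183%. Several of these promoters, such as those of Ifi205, Mnda and Ifi207, share long stretches of sequence, so the 14 are not independent. The windows of Ifi203 overlap, and a match is only a run of letters. An island lay over the Aim2 and Ifi207 windows in 13 of 13 libraries. One covered the Ifi205 window in 10 libraries, among them all 7 with IFNg, the Mnda window in 6 libraries, 5 of them with IFNg, and the Ifi203 window in 3, all with IFNg.

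Across the whole window, islands held more reads in every IFNg library than in every library without it. They held 16932 normalised reads at IFNg 2 h, 21422 at IFNg 4 h, 13906 with IFNg plus IL-4 at 2 h and 10297 with both at 4 h, against 3819 with IL-4 at 2 h, 2884 with IL-4 at 4 h and 6763 in untreated cells. With IFNg for 4 h they held 10180 in shJunB, 9776 in shCEBP-beta and 8752 in scramble cells, against 4760, 4015 and 4049 in the same cells untreated. Normalised reads are the reads of the islands divided by a size factor per library (median of ratios). An island that touched the window was counted whole. At the Ifi205 end each IFNg library thus counted a long island reaching past the edge, with 2531 to 9335 normalised reads. In the other libraries, islands lying wholly past the edge were left out. On that stretch these held 345 in untreated cells and 568 and 287 with IL-4 at 2 h and 4 h. Untreated knockdown cells held 581 there in scramble, 707 in shJunB and 711 in shCEBP-beta cells. Of that the window counted 168.6, 119.5 and 179.4. Sums, lengths and values per kb of the window share this limit. Called length was 96.8 to 135.8 kb in the 7 IFNg libraries and 34.6 to 75.0 kb in the 6 others. Since islands were called separately in each library, such a sum moves with the length called, in the folds and in the fits alike, and reads per kb of called island are given beside it. Per kb the window had 131.5 and 157.7 normalised reads at IFNg 2 h and 4 h and 117.6 and 89.1 with both cytokines, against 77.0 and 83.3 with IL-4 and 126.2 in untreated cells, so these libraries overlapped. In knockdown cells it had 80.5 to 90.4 with IFNg, against 62.1 to 63.5 without. In bulk chromatin, more cells carrying the mark and more mark per cell cannot be told apart.

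**Figure D1:**
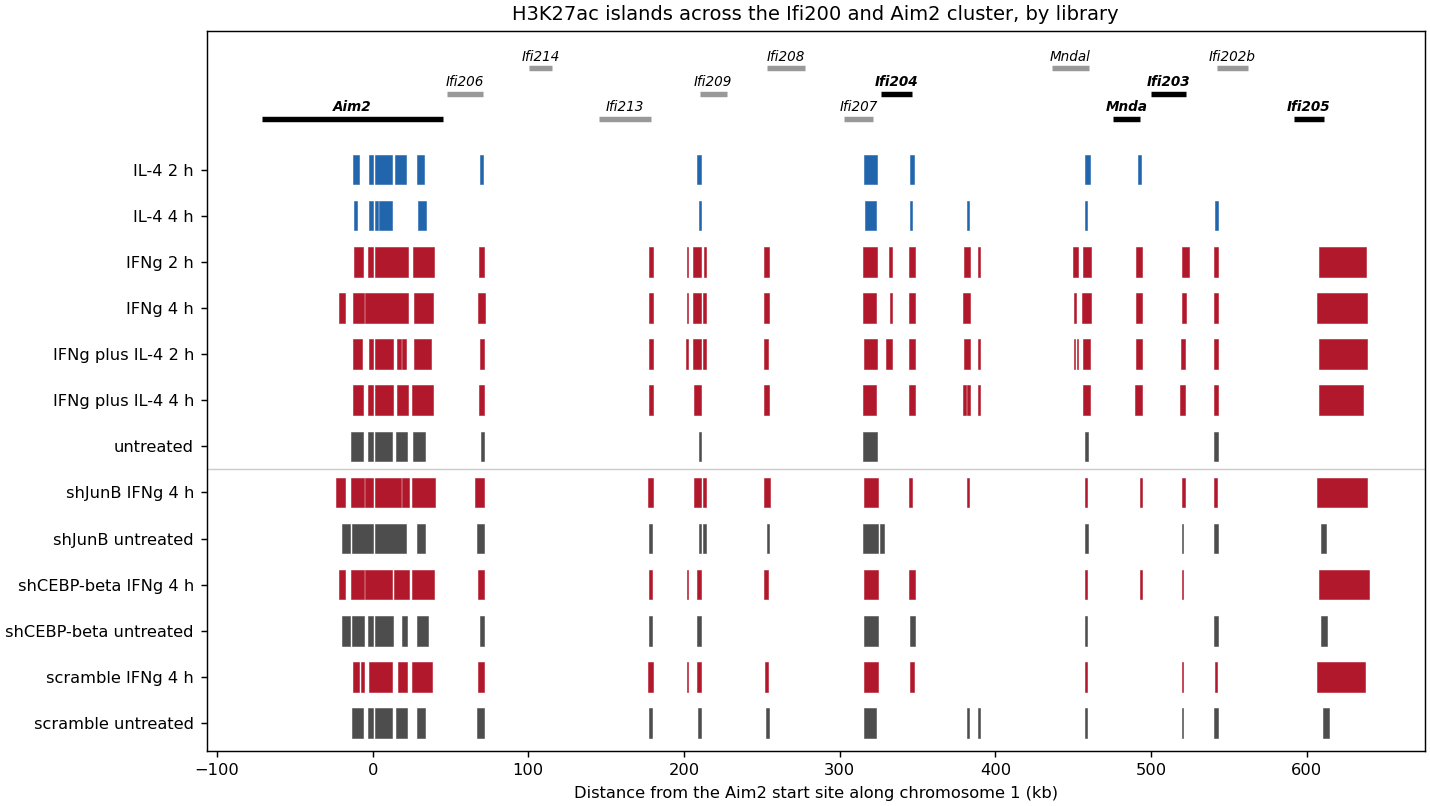
Islands called in each library (rows) along the cluster, as distance in kb from the Aim2 start site; red rows had IFNg, blue rows IL-4 alone and grey rows no cytokine, black bars on top are the 5 members and grey bars other PYHIN genes. The long block at the right, over the start of Ifi205, is unbroken in the 7 red rows. It is a short island in the untreated rows of the knockdown experiment and absent in the untreated and IL-4 rows of the cytokine experiment. Islands that lie wholly past the end of the window are not drawn.

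The islands merged over libraries into 21 regions. Aim2 held 3 regions, Ifi204 another 3, and Ifi205, Mnda and Ifi203 had 1 each. Between genes lay 3 regions, of which the longest, chr1:173799601-173804200, had 190 to 254 normalised reads in the 4 cytokine libraries with IFNg, 31.5 with IL-4 at 4 h, 39.5 in shJunB cells with IFNg and 32.4 in untreated scramble cells, and no island in the other libraries. The annotated Aim2 span reaches far before the start used here and overlaps Cadm3, but Cadm3 and its neighbour Ackr1 had no island in any library. The nearest gene with an island before Aim2 was Dusp23, 715.6 kb away, and past Ifi205 it was the olfactory receptor gene Olfr430, 8.7 kb beyond the end of the Ifi205 region, with 61.4 to 126.3 normalised reads in 3 libraries, all with IFNg.

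Aim2, the DNA sensor of the inflammasome, was acetylated in all 13 libraries. In the cytokine experiment it had 5581 normalised reads at IFNg 2 h and 6688 at IFNg 4 h, against 3892 in untreated cells. IL-4 alone gave 1797 at 2 h and 1354 at 4 h, and IFNg plus IL-4 gave 4067 at 2 h and 3597 at 4 h. With IFNg for 4 h it had 4162 in shJunB, 4089 in shCEBP-beta and 3385 in scramble cells, against 2417, 1994 and 1979 in the same cells untreated. Libraries with IFNg and libraries without it therefore did not overlap within either experiment, except for the untreated cytokine library, which lay above IFNg plus IL-4 at 4 h. Over all 13 libraries the order ran down from IFNg 4 h and IFNg 2 h to both IL-4 libraries at the low end. Neighbours in that order were often within counting error: shCEBP-beta and scramble untreated cells differed by a factor of 1.01 (0.947 to 1.07), and IFNg plus IL-4 at 2 h and untreated cells by a factor of 1.05, an interval that held 1.

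Factors between single libraries carry exact binomial (Clopper-Pearson) 95% intervals, which cover counting error only, since duplicate fragments cannot be told from independent molecules, and say nothing about cultures. With IFNg, Aim2 was 1.43-fold (1.37 to 1.50) higher at 2 h and 1.72-fold (1.65 to 1.79) higher at 4 h than in untreated cells. Over 4 h of IFNg the factor was 1.72 (1.64 to 1.81) in shJunB, 2.05 (1.95 to 2.16) in shCEBP-beta and 1.71 (1.61 to 1.82) in scramble cells. Per kb of island these 5 factors were 1.20 and 1.25 in the cytokine experiment, 1.38 in shJunB, 1.42 in shCEBP-beta and 1.48 in scramble cells. A fit over these 4 pairs, with the background of each pair as a block, treats the 4 backgrounds as repeats of the same contrast. In it Aim2 rose by a log2 of 0.84 ± 0.11 (SE), with an adjusted p of 0.00911 in edgeR's quasi-likelihood test (Benjamini-Hochberg over 11849 genes), and was higher in 4 of 4 pairs. In the same fit 14.7% of genes were called higher. Without the block the adjusted p was 0.0739.

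The 3 regions of Aim2 did not respond alike. The start-site domain, chr1:173406601-173444000, 37.4 kb long and reaching from 14.0 kb before the annotated start to 23.4 kb after it, was acetylated in all libraries. It had 3293 and 4083 normalised reads at IFNg 2 h and 4 h, against 3354 in untreated cells. The distal domain, chr1:173445601-173460800, 15.2 kb long and 25.0 to 40.2 kb past the start, inside the gene, had 2288 and 2474 normalised reads at IFNg 2 h and 4 h, against 538 in untreated cells. A weaker region 14.8 to 23.6 kb before the start had an island in 5 libraries, IFNg 4 h and the 4 with shJunB or shCEBP-beta, at 93.4 to 164.5 normalised reads.

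Summed over its islands, the distal domain had a higher fold with IFNg than the start-site domain in the cytokine pairs at both times and in all 3 knockdown backgrounds, while its called length also differed, 12.2 to 14.8 kb with IFNg alone, against 5.0 to 7.8 kb without cytokine. Against untreated cells it was 4.25-fold higher (3.84 to 4.72) with IFNg for 2 h and 4.60-fold (4.17 to 5.09) for 4 h. In shJunB cells it had 1420 normalised reads with IFNg, against 335 without, in shCEBP-beta cells 1492, against 371, and in scramble cells 1473, against 371, so that all IFNg values lay above all values without IFNg. Those factors were 4.24 (3.77 to 4.79), 4.02 (3.61 to 4.49) and 3.97 (3.50 to 4.51). The start-site domain had 2578 in shJunB, 2503 in shCEBP-beta and 1913 in scramble cells with IFNg, against 1966, 1503 and 1608 without. Its factor was 0.982 (0.932 to 1.03) at IFNg 2 h and 1.22 (1.16 to 1.28) at 4 h in the cytokine experiment, then 1.31 in shJunB, 1.67 in shCEBP-beta and 1.19 in scramble cells. Per kb of called island the distal factor was 2.40 and 2.94 at IFNg 2 h and 4 h, then 1.49 in shJunB, 1.93 in shCEBP-beta and 1.55 in scramble cells, and that of the start-site domain 0.937 and 1.03, then 1.31, 1.20 and 1.30.

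Fitted over the 4 pairs with each merged region as its own feature, an analysis chosen after seeing the data, the distal domain rose by a log2 of 2.07 ± 0.10 (SE; edgeR adjusted p = 0.000977) and the start-site domain by 0.41 ± 0.12 (adjusted p = 0.034). There 20.9% of 15598 regions were called higher. The start-site call was lost in 5 of 7 other settings, with an adjusted p of up to 0.382. The log2 ratio of summed reads of the distal domain exceeded that of the start-site domain by 1.92 in the cytokine pair, 1.69 in shJunB, 1.27 in shCEBP-beta and 1.74 in scramble cells, a mean of 1.66 ± 0.27 (SD, n = 4 pairs), in 4 of 4 pairs. Per kb of called island the difference was 1.52, 0.19, 0.69 and 0.26 in the same order, a mean of 0.66 ± 0.61, so in shJunB and scramble cells most of the difference in sums went with called length. This difference was not tested.

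**Figure D2:**
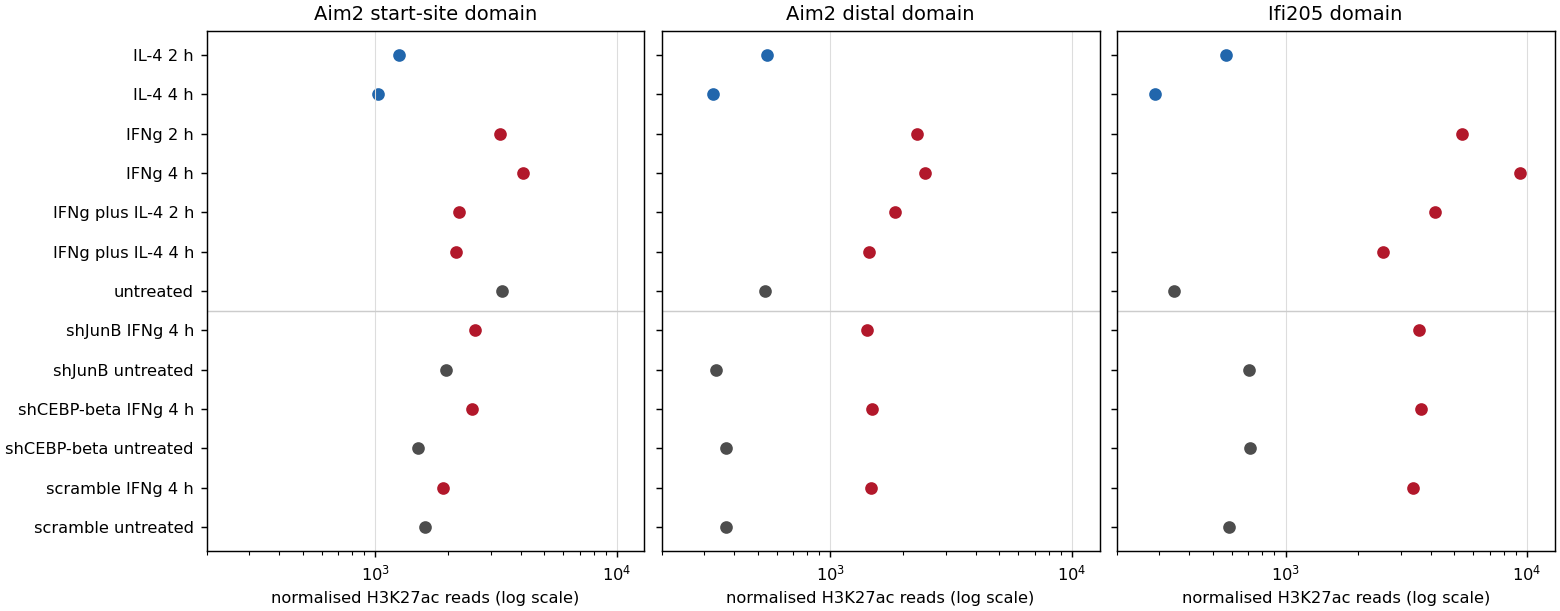
Normalised H3K27ac reads (log axis) of the Aim2 start-site domain, the Aim2 distal domain and the Ifi205 domain, 1 point per library; red had IFNg, blue IL-4 alone, grey no cytokine, with the cytokine experiment above the line and the knockdown experiment below. In the distal and Ifi205 domains each red point lies right of each grey or blue one. In the start-site domain the untreated cytokine library, at 3354, lies among the IFNg libraries. There untreated shJunB cells, at 1966, also lie right of scramble cells with IFNg, at 1913.

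Ifi205, whose product has been linked to expression of the adaptor ASC in mouse macrophages, had higher folds with IFNg than Aim2 in every pair, in summed reads and per kb. With IFNg a single island covered its 5′ end and the flank before it in all 7 libraries. That island was 28.4 to 32.4 kb long and ran from 25.0 to 28.8 kb before the start to 3.2 to 5.0 kb inside the gene, over the olfactory receptor genes Olfr433 and Olfr432. Without IFNg the same stretch held 2 to 4 separate islands of 1.2 to 8.6 kb. In untreated and IL-4 libraries of the cytokine experiment none of these touched Ifi205 or its 1 kb margin. They lay 6.2 to 10.2 kb and 20.0 to 21.6 kb before the start in untreated cells, and at similar places with IL-4. The 3 untreated knockdown libraries had in addition an island over the start, 3.0 to 4.2 kb long, with 119.5 normalised reads in shJunB, 179.4 in shCEBP-beta and 168.6 in scramble cells.

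**Figure D3:**
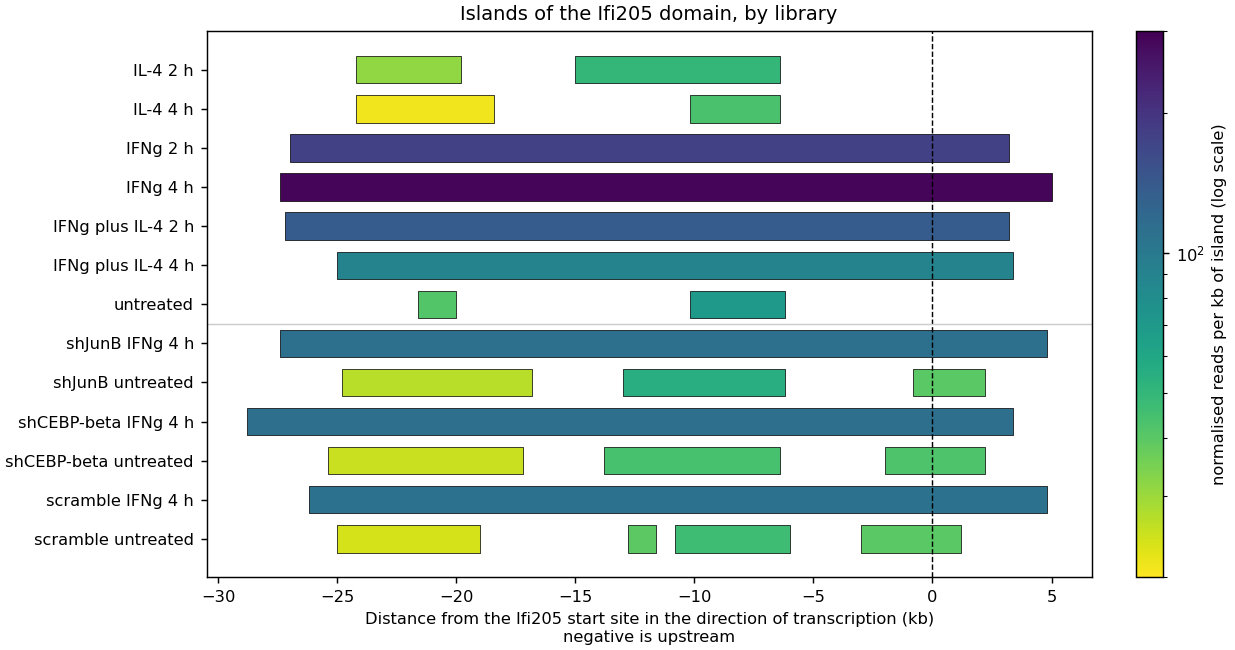
Islands of the Ifi205 domain in each library (rows), as distance in kb from the Ifi205 start site in the direction of transcription, shaded by normalised reads per kb of island (log scale). The 7 IFNg libraries show a single island of 28.4 to 32.4 kb across the start, and the others show 2 to 4 shorter ones.

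The merged region, chr1:174026801-174060600 (33.8 kb), is called the Ifi205 domain here. It had 5367 normalised reads at IFNg 2 h and 9335 at IFNg 4 h, against 345 in untreated cells. With IL-4 alone it had 568 at 2 h and 287 at 4 h, and with IFNg plus IL-4 it had 4174 at 2 h and 2531 at 4 h. With IFNg for 4 h it had 3579 in shJunB, 3638 in shCEBP-beta and 3359 in scramble cells, against 707, 711 and 581 in the same cells untreated. The lowest IFNg library was thus above the highest library without IFNg. Per kb of called island it had 178 and 288 reads at IFNg 2 h and 4 h, against 61.6 in untreated cells, and 108 to 113 in the 3 knockdown libraries with IFNg, against 35.9 to 39.7 without.

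In reads summed over islands the Ifi205 domain was 15.6-fold (13.8 to 17.6) higher at IFNg 2 h and 27.1-fold (24.1 to 30.6) higher at IFNg 4 h than in untreated cells, with 30.2 and 32.4 kb called, against 5.6 kb. Per kb of island the factors were 2.89 and 4.68. The factors of summed reads at 4 h were 5.06 (4.67 to 5.49) in shJunB, 5.12 (4.74 to 5.53) in shCEBP-beta and 5.78 (5.25 to 6.36) in scramble cells, with 31.0 to 32.2 kb called with IFNg, against 16.2 to 19.8 kb without. Per kb they were 2.80, 3.15 and 3.02. In these cells the islands touching the gene alone gave 30.0, 20.3 and 19.9, since a part of the untreated signal lay farther before the start. Over the 4 pairs the domain rose by a log2 of 2.94 ± 0.47 (SE; edgeR adjusted p = 0.00611), in 4 of 4 pairs, where 22% of 12420 genes measured over merged regions were called higher. In the additive fit of the 7 cytokine libraries it rose with IFNg by 3.52 ± 0.55 (adjusted p = 0.0246), beside 7.48% of genes so measured. That call was lost without IFNg 2 h (adjusted p = 0.0571), without IFNg plus IL-4 at 2 h (0.189) and without IL-4 at 4 h (0.114).

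Aim2 had a log2 of 1.07 ± 0.24 (SE) for IFNg in the additive fit of the cytokine libraries, with an adjusted p of 0.0658, where 4.27% of 11655 genes were called higher. Its distal domain rose by 2.08 ± 0.25 (adjusted p = 0.0193), beside 6.02% of 15355 regions, and the start-site domain had 0.64 ± 0.25 (adjusted p = 0.168). The distal call was lost in 5 of 10 other settings.

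**Figure D4:**
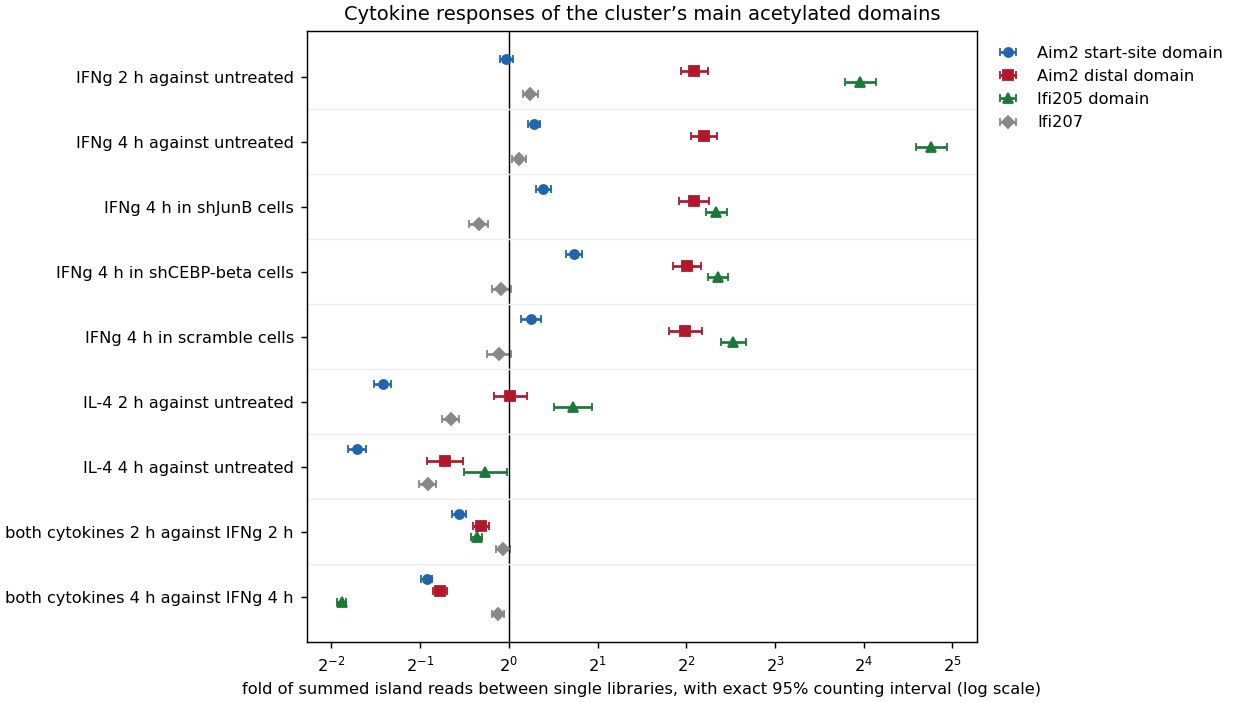
Fold of summed island reads between single libraries (log axis) with exact 95% counting intervals for the Aim2 start-site domain, the Aim2 distal domain, the Ifi205 domain and Ifi207 as a relative, for the IFNg, IL-4 and combined comparisons. With IFNg at 4 h the Ifi205 domain was 5.06- to 27.1-fold higher (2.80- to 4.68-fold per kb of island, not drawn) and the distal domain 3.97- to 4.60-fold (1.49- to 2.94-fold per kb), and with IL-4 the start-site domain was at 0.373 and 0.306 of untreated cells.

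Ifi204, Ifi203 and Mnda carried far fewer reads, and their values are uncertain. They are near-identical in stretches to other genes of the cluster and the deposited files' naming marks their reads as uniquely mapped. The control reads per kb of island were 3.28 at Ifi204, 1.73 at Ifi203 and 0.41 at Mnda, against a median of 11.3 over genes, 12.8 at Aim2 and 8.95 at Ifi205. Counts at these genes were 27 to 510 reads. Fewer reads did not mean a lower fold over control. At IFNg 4 h the deposited fold was 36.9 at Mnda, 23.7 at Ifi203 and 2.02 and 11.5 at Ifi204. It was 16.6 at Ifi205 and 1.56 to 9.57 over the islands of Aim2. The folds at Mnda and Ifi203 rest on 2 and 4 control reads. Where no island was called the level is unknown and no fold is given.

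Ifi204, the counterpart of human IFI16, had no island in untreated cells and 372 and 188 normalised reads at IFNg 2 h and 4 h. It had 83.7 and 33.4 with IL-4 at 2 h and 4 h, and 508 and 116 with IFNg plus IL-4. In the knockdown experiment it had 47.1 and 57.8 in shJunB cells with and without IFNg, 70.6 and 55.7 in shCEBP-beta cells, and 57.3 with IFNg and no island without in scramble cells. The 2 shJunB values came from different places. The 57.8 lay in chr1:173746401-173748800, called in no other library, and the 47.1 in chr1:173765001-173769000, which had no island in untreated shJunB cells. The high values were thus those of the cytokine libraries with IFNg, and the knockdown libraries overlapped. Per kb of island it had 62.0 with IFNg and 62.0 with both at 2 h, then 36.1 and 28.9 at 4 h.

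Ifi203 had 239 and 180 normalised reads at IFNg 2 h and 4 h and 142 and 120 with IFNg plus IL-4 at 2 h and 4 h, and no island in the untreated and IL-4 libraries. In shJunB cells it had 62.5 with IFNg, against 32.2 without, in shCEBP-beta cells 45.7, against no island, and in scramble cells 44.2, against 32.4. Per kb the shJunB pair ran the other way, 28.4 with IFNg, against 40.2 without. Mnda, named for the myeloid nuclear differentiation antigen and listed in RefSeq as a synonym of Ifi211, had 147 and 140 at IFNg 2 h and 4 h, 155 and 124 with IFNg plus IL-4, 52.0 with IL-4 at 2 h and no island with IL-4 at 4 h or in untreated cells. In knockdown cells it had an island in 2 libraries, 61.4 in shJunB and 50.7 in shCEBP-beta cells with IFNg. For both genes the 4 cytokine libraries with IFNg stood above all other libraries in summed reads, but not per kb of island. Their islands were 2000 to 4400 bp long at Ifi203, against 400 bp in scramble cells with IFNg. At Mnda they were 4000 to 4600 bp long, against 1600 bp in shJunB and shCEBP-beta cells with IFNg.

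None of these 3 genes could be fitted over the 4 pairs without filling libraries that had no island with the 5th percentile of their reads per island. Filled in this way they had a log2 of 0.49 (Ifi204, adjusted p = 0.365), 0.76 (Ifi203, 0.148) and 0.43 (Mnda, 0.275). In the cytokine fit the filled values were 2.50 ± 0.33 for Ifi204, 1.71 ± 0.23 for Ifi203 and 1.58 ± 0.19 for Mnda (SE), with adjusted p of 0.0353, 0.0353 and 0.0292 in edgeR, where 3.22% of 14039 genes were called higher. These 3 calls were lost whichever library was left out, with adjusted p of 0.057 to 0.261, and the fitted values depend on the filling.

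By a rule of size, a ratio of 2 or more, the larger value 50 normalised reads or more, and missing islands filled, 4 of the 5 members were higher at IFNg 2 h than in untreated cells, all but Aim2, against 15.7% of genes. At IFNg 4 h the same 4 passed, against 16.7% of genes. The median log2 ratio over the 5 was 2.07 at 2 h and 1.66 at 4 h, beside 0.01 over all genes at both times. Of the members, Aim2 alone had an island in untreated cells. The ratios of the other 4 and both medians thus rest on filled values and do not measure the size of a rise. Islands of the Ifi205 domain that did not touch the gene, 345 normalised reads in untreated cells, are left out here. In knockdown cells Ifi205 passed in shJunB (10.3% of genes higher), Ifi205 and Aim2 in shCEBP-beta (9.33%) and Ifi205 in scramble cells (8.57%).

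Aim2 had fewer reads in the IL-4 libraries than in untreated cells. With IL-4 alone it was at 0.462 (0.435 to 0.490) of untreated cells at 2 h and 0.348 (0.327 to 0.370) at 4 h, that is 2.17- and 2.87-fold lower, with 29.0 and 20.2 kb called, against 37.2 kb. Per kb of island it was at 0.592 and 0.641. By the rule of size Aim2 was lower at both times, where 12.9% and 12.7% of genes were lower. The other members had no island touching them in untreated cells and so could not be called lower. Most of this lay in the start-site domain, which had 1252 and 1027 normalised reads with IL-4 at 2 h and 4 h, against 3354 in untreated cells, a factor of 0.373 (0.349 to 0.399) and 0.306 (0.285 to 0.328). The distal domain had 545 and 327, against 538, a factor of 1.01 (0.892 to 1.15) and 0.608 (0.527 to 0.701). Per kb the start-site domain was at 0.450 and 0.592 and the distal domain at 1.72 and 0.949. The Ifi205 domain had 13 and 9.6 kb called with IL-4 at 2 h and 4 h, against 5.6 kb, and per kb 43.7 and 29.9 normalised reads, against 61.6, lower at both times. Its summed reads were at 1.65 (1.43 to 1.91) and 0.833 (0.707 to 0.982) of untreated cells.

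With IFNg plus IL-4 both main genes had fewer reads than with IFNg alone, more so at 4 h. Aim2 with both was at 0.729 (0.699 to 0.760) of IFNg alone at 2 h and at 0.538 (0.520 to 0.556) at 4 h. The Ifi205 domain was at 0.778 (0.746 to 0.811) at 2 h and at 0.271 (0.261 to 0.281) at 4 h, that is 3.69-fold lower. Per kb of island Aim2 was at 0.918 and 0.656 and the Ifi205 domain at 0.773 and 0.309. Between the 2 times it was 1.74-fold higher at 4 h than at 2 h with IFNg alone, and at 0.607 of its 2 h level with both cytokines (1.62 and 0.649 per kb). Of the 5 members 0 were lower by the rule of size at 2 h, against 5.31% of genes, and Ifi205 alone at 4 h, against 7.87%. The summed reads of Ifi204 with both cytokines were at 1.37 (1.19 to 1.57) of IFNg alone at 2 h and at 0.617 (0.505 to 0.752) at 4 h, and per kb at 0.999 and 0.802. Its region chr1:173765001-173769000 had fewer reads with both cytokines at 2 h (142.5, against 183.3) and 4 h (115.7, against 153.0). Its region chr1:173750001-173754200 had more at 2 h (365.7, against 188.8), and at 4 h 34.5 with IFNg and no island with both. Ifi203 was at 0.595 and 0.669, per kb at 1.31 and 0.720, and Mnda at 1.06 and 0.887, per kb at 1.06 and 0.771.

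With IFNg added to IL-4, Aim2 was 2.26-fold higher than with IL-4 alone at 2 h, and 2.66-fold higher at 4 h. The Ifi205 domain was 7.34- and 8.81-fold higher. Per kb these were 1.85 and 1.28 for Aim2 and 3.14 and 2.98 for the Ifi205 domain. All 5 members were higher by the rule of size, against 12.6% of genes at 2 h and 13.4% at 4 h, with Ifi203 and Ifi205 filled in the IL-4 libraries at both times and Mnda at 4 h.

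These IL-4 differences did not pass the test across genes. In the additive fit of the 7 cytokine libraries IL-4 gave a log2 of -0.91 ± 0.23 (SE) for Aim2, with an adjusted p of 0.239 in edgeR, -1.07 ± 0.24 for the start-site domain (0.156), -0.41 ± 0.23 for the distal domain (0.429) and -0.61 ± 0.49 for the Ifi205 domain (0.573). In that fit 0% of genes were called lower for IL-4, and 0 were called in either direction, whereas 1663 of 11655 had an unadjusted p under 0.05 and DESeq2 called 1411. Among these 7 libraries an effect of IL-4 that depends on IFNg or on time falls into the residual spread. DESeq2 gave Aim2 an adjusted p of 0.00229, and with an IFNg by IL-4 interaction term edgeR gave the start-site domain a log2 of -1.55 without IFNg (adjusted p = 0.0492).

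Both knockdowns lay close to scramble at the main genes. In untreated cells Aim2 was at 1.22 (1.15 to 1.30) of scramble in shJunB and at 1.01 (0.947 to 1.07) in shCEBP-beta cells, and with IFNg at 1.23 (1.17 to 1.30) and 1.21 (1.15 to 1.27). The Ifi205 domain was at 1.22 in both knockdowns untreated (1.09 to 1.36 in shJunB) and at 1.07 (1.01 to 1.13) in shJunB and 1.08 (1.03 to 1.14) in shCEBP-beta cells with IFNg. These factors are of summed reads. Per kb of island the start-site domain of Aim2 had 58.2 and 60.1 normalised reads in untreated shJunB and shCEBP-beta cells, against 55.5 in scramble. With IFNg these were 76.3 and 71.9, against 71.9. The distal domain had 64.4 and 54.6 untreated, against 74.1, and 95.9 and 105.1 with IFNg, against 115.0. For the Ifi205 domain they were 39.7 and 35.9, against 35.9, and 111.1 and 113.0 with IFNg, against 108.4. By the rule of size 0 of 5 members differed from scramble, against 7.94% of genes in untreated and 7.7% in IFNg-treated shJunB cells, and 5.86% and 5.76% in shCEBP-beta cells.

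Fitted over both states, shJunB gave Aim2 a log2 of 0.29 ± 0.13 (SE; edgeR adjusted p = 0.554) and shCEBP-beta 0.14 ± 0.13 (0.869). For the islands touching Ifi205 these were -0.18 ± 0.20 (0.762) and 0.10 ± 0.20 (0.955), and over the whole domain the shJunB value was 0.18. The distal domain of Aim2 had -0.10 ± 0.10 and 0.01 ± 0.10. For shJunB 0% of 12450 genes were called, with 1205 at an unadjusted p under 0.05 and 232 by DESeq2, and for shCEBP-beta 0.00803%, which is 1 gene, with 551 and 79. With 2 residual degrees of freedom, differences of this size were not resolved.

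Levels also differed between the experiments. Aim2 in untreated scramble cells was at 0.509 (0.480 to 0.539) of untreated cells of the cytokine experiment, and the start-site domain at 0.480, while the summed reads of the Ifi205 domain were at 1.69 (1.46 to 1.95), with 16.2 kb called, against 5.6 kb, and per kb at 0.583. With IFNg for 4 h scramble cells were at 0.506 (0.482 to 0.531) for Aim2 and 0.360 (0.343 to 0.377) for the Ifi205 domain. Over all genes 18.8% passed the rule of size in either direction between the 2 untreated libraries. Hairpin, experiment and the lower share of reads in islands differ together here and cannot be told apart.

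The other PYHIN genes of the cluster numbered 8. By the rule of size 5 of them (Ifi206, Ifi208, Ifi209, Ifi213 and Mndal) were higher at IFNg 2 h and at 4 h than in untreated cells. Over all genes 15.7% were higher at 2 h and 16.7% at 4 h. The median log2 ratio was 1.97 and 1.99 over the 7 with an island, beside 0.01 over all genes. Ifi208 and Ifi213 had no island in untreated cells, so their calls and both medians include filled values. Ifi209 had 547 and 536 normalised reads at IFNg 2 h and 4 h, against 114 in untreated cells. Ifi206 had 323 and 421, against 74.0, and Mndal 562 and 401, against 91.0. These are summed reads, which move with called length, and values per kb are not given for them. In untreated cells Ifi209 had an island of 1800 bp. At IFNg it had islands of 5200 and 1400 bp at 2 h and of 5200 and 2000 bp at 4 h. Mndal had 1600 bp untreated, against islands of 2800 and 4800 bp and of 1200 and 5400 bp. The Ifi206 island had 2000 bp, against 3200 and 4200 bp. In knockdown cells 3 of the 8 were higher and Ifi202b lower in shJunB cells, 0 were higher and Ifi202b lower in scramble cells, and 0 differed in shCEBP-beta cells. Over all genes 10.3% were higher and 9.73% lower in shJunB cells, and 8.57% and 10.6% in scramble cells. In shCEBP-beta cells these were 9.33% and 9.63%. Over the 4 pairs Ifi206 had a log2 of 1.15 (edgeR adjusted p = 0.0749), Ifi209 1.01 (0.0834) and Mndal 1.02 (0.0752). With missing islands filled Ifi208 rose by 1.35 (0.0306) and Ifi213 by 1.05 (0.0474), where 12.7% of 14400 genes were called higher, and Ifi202b fell by 0.76 (0.0345), where 14.3% were called lower. Each of these 3 calls was lost in at least 3 of the 4 fits that leave out a pair, with adjusted p of up to 0.142.

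Ifi202b had 133.9 and 105.0 normalised reads at IFNg 2 h and 4 h, against 140.8 in untreated cells. Ifi207 had the strongest signal of the relatives and was not called for IFNg over the 4 pairs. It had 2898 and 2660 normalised reads at IFNg 2 h and 4 h, against 2451 in untreated cells, and 1274, 1277 and 1167 with IFNg in shJunB, shCEBP-beta and scramble cells, against 1612, 1355 and 1257 without. Over the 4 pairs its log2 was -0.10 ± 0.12 (SE; edgeR adjusted p = 0.533). With IL-4 it had 1556 at 2 h and 1299 at 4 h, against 2451, a factor of 0.635 (0.594 to 0.679) and 0.530 (0.495 to 0.568), and 0.681 and 0.630 per kb. Ifi214 had no island in any library. Control reads per kb were 1.08 at Ifi208, 1.62 at Ifi213, 3.15 at Mndal, 3.50 at Ifi206 and 4.62 at Ifi209, so these values share the limit of the low members, whereas Ifi207 had 13.04.

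**Figure D5:**
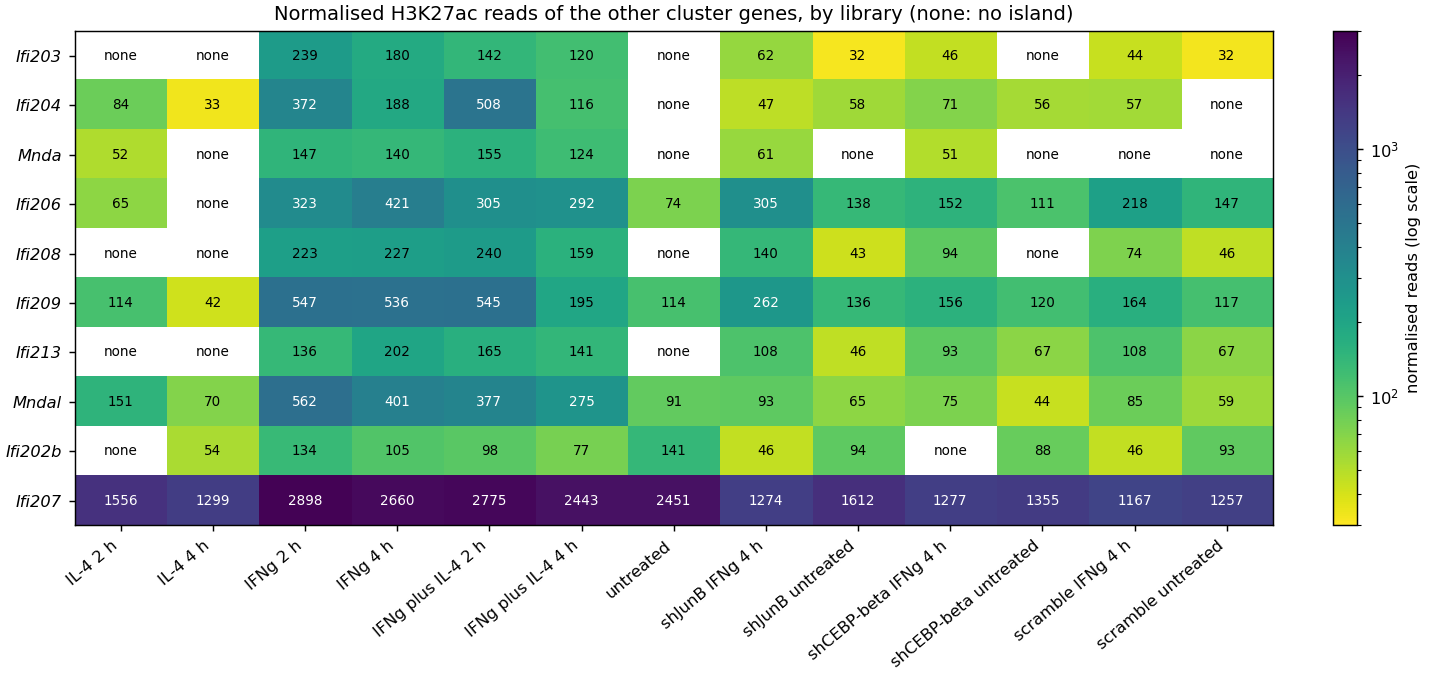
Normalised H3K27ac reads of the 3 low members and of 7 relatives (rows) in each library (columns), shaded on a log scale, with none where no island was called. The 4 cytokine libraries with IFNg are darkest for most genes, with Ifi202b among the exceptions, and Ifi207 is high in all 13.

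The partners of AIM2 were read beside the cluster from a list of 20 inflammasome genes, 18 of which had an island. At IFNg 4 h 5 were higher and 1 lower than in untreated cells by the rule of size, with a median log2 ratio of 0.44 beside 0.01 over all genes, of which 16.7% were higher and 14.9% lower. Il1rn, the interleukin-1 receptor antagonist, had 4805 normalised reads at IFNg 4 h, against 1017 in untreated cells, Pycard, which encodes ASC, had 1962, against 521, and Casp4, encoding caspase-11, had 2330, against 829. With IL-4 at 4 h 1 of the 18 was higher and 4 lower than in untreated cells, where 9.72% and 12.7% of all genes were. With IFNg plus IL-4 at 4 h 0 were higher and 5 lower than with IFNg, beside 8.16% and 7.87% of all genes.

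Of 20 genes of cytosolic nucleic acid sensing, all with an island, 8 were higher and 1 lower at IFNg 4 h, beside the same 16.7% and 14.9% of all genes, with a median log2 ratio of 0.74. Rnaseh2b, a subunit of ribonuclease H2, had 4943 normalised reads at IFNg 4 h, against 961 in untreated cells, Irf7, an interferon regulatory factor, had 2798, against 574, and Zbp1, a sensor of Z-form nucleic acid, had 3075, against 649. With IL-4 at 4 h 1 was higher and 1 lower (9.72% and 12.7% of all genes), and with IFNg plus IL-4 at 4 h 0 were higher and 3 lower than with IFNg (8.16% and 7.87%).

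Over the 13 libraries the genes whose normalised reads followed those of Aim2 most closely, among 11503 genes with an island in each, were Pid1 (Pearson r = 0.968), Sgk3 (0.965) and Nox1 (0.958). The first 2 lie on chromosome 1 and Nox1 on chromosome X. The points share libraries, depth and the 2 experiments, so the values only describe a pattern.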

How the data were processed

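H3K27ac ChIP-seq was deposited for 13 libraries of mouse bone marrow-derived macrophages, 1 per condition. Bowtie2 2.2.6 and SICER 1.1 are named in the submitters' processing notes with the builds mm10 and GRCm38, and per the labels the file names mark uniquely mapped reads. Each deposited file lists islands with the ChIP read count, the control read count, a p-value, a fold over control (a ratio) and a false discovery rate, all as the authors' caller gave them. Islands lay on a 200 bp grid and the largest false discovery rate was 0.00999. The control held 14.1 M reads in all 13 files, as worked out from the deposited fold values. File totals of 14.3 to 37.4 M reads were worked out the same way.

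Counts of islands touching a gene's RefSeq span plus 1 kb were summed, divided by median-of-ratios size factors, and called normalised reads. They were also divided by the length called. Islands that overlapped by 1 bp or more between libraries were merged into regions. A gene with no island has no known level and got no fold. For counts over lists and for the fits that name it, such a library was filled with the 5th percentile over its own islands, 37 to 65 reads. Folds between single libraries carry exact binomial 95% intervals, which cover counting error only. The rule of size was a ratio of 2 or more, with 50 normalised reads or more in the larger value.

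Counts were fitted with edgeR 4.0.16 in R 4.3.3 (quasi-likelihood test, Benjamini-Hochberg over all genes or regions fitted, threshold 0.05) in 3 models: IFNg at 4 h over 4 pairs with the background as a block, IFNg, IL-4 and time over 7 cytokine libraries, and hairpin and IFNg over 6 knockdown libraries. Ifi205 was fitted over merged regions where islands touching it were missing. DESeq2 1.42.0, TMM, library totals, other gene windows, stricter islands, leaving out libraries and an interaction term were the alternatives. Tested on simulated data, the fit over 4 pairs recovered 65 of 100 genes changed by a log2 of 1 and 100 of 100 changed by 2, with 5 of 11649 unchanged genes called. The cytokine fit recovered 20 and 95 of 100 for IFNg, and the knockdown fit 25 and 97 of 100 for shJunB. The simulated counts had no missing islands, no differences in called length and no effect besides the simulated one. These rates therefore need not hold for the real libraries. Named genes were the 5 members, the PYHIN genes and neighbours of the locus, up to 3 genes of each list with the largest ratio at IFNg 4 h, and the 3 genes most like Aim2. The members and lists were chosen with earlier results of these data known. Python 3.11.15 was used for the rest.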

Additional observations from a re-analysis of the deposited data

Results flagged for a closer look

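Reads summed over separately called islands differed in direction between the 2 times in a pair of results. With IL-4 the Ifi205 domain was at 0.833 of untreated cells at 4 h and at 1.65 at 2 h in summed reads, with 9.6 and 13 kb called, against 5.6 kb in untreated cells. Per kb it was at 0.486 and 0.710, lower at both times. For IFNg plus IL-4 over IFNg alone Ifi204 was at 0.617 at 4 h and 1.37 at 2 h in summed reads, and per kb at 0.802 and 0.999. Its region chr1:173765001-173769000 had fewer reads with both cytokines at both times. Only chr1:173750001-173754200 had more, at 2 h, 365.7 normalised reads, against 188.8. Each value compares 1 library with 1 other, and the difference between the times was not tested.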

How the results depend on the processing

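Over the 4 IFNg pairs, Aim2 passed the threshold in 12 of 13 other settings (log2 0.78 to 0.867) and failed without the block (0.83, adjusted p = 0.0739). Ifi205 passed in 12 of 12 (2.41 to 5.14; 2.41 to 3.17 with a pair left out) and the distal Aim2 domain in 7 of 7. Genes called numbered 3787, 6015 with DESeq2, 5772 over merged regions and 1103 to 3683 with a pair left out. Ifi204 turned to -0.056 with a 10 kb window. In the cytokine fit the IFNg value of Aim2 passed in DESeq2 (1.07) and over merged regions (1.07), and was 0.853 to 1.29 with a library left out. That of Ifi205 was 2.98 to 3.98. Genes called for IFNg numbered 661, 3567 with DESeq2, 1065 with the interaction term, 1355 over merged regions and 0 to 156 with a library left out. For IL-4 the Aim2 value passed in DESeq2 (-0.91) and was -1.06 to -0.69 with a library left out. That of Ifi205 was 0.42 with the interaction and -1.21 to 0.15 with a library left out. Genes called for IL-4 numbered 0, 1411 with DESeq2, 391 with the interaction, 32 over merged regions, 6 with missing islands filled and 0 with a library left out. Ifi202b turned to -0.12 with the interaction. For shJunB, Ifi205 was 0.21 with a 10 kb window, 0.18 over merged regions and -0.49 to 0.085 with a library left out, and 232 genes were called by DESeq2 and 0 with a library left out. For shCEBP-beta, Ifi205 was -0.048 to 0.26 with a library left out. Genes called numbered 1, 79 by DESeq2, 3 with missing islands filled, and 0 with a 10 kb window, stricter islands, pairs only, merged regions or a library left out. With a library left out, Aim2 was 0.227 to 0.362 for shJunB and 0.014 to 0.270 for shCEBP-beta, the start-site domain was -0.063 to 0.352 and the distal domain -0.019 to 0.037 for shCEBP-beta, and the distal domain was -0.053 with library totals. Ifi203 in scramble cells over the cytokine library, both with IFNg, reversed to 0.78 per kb of island. The cause of each change was not tested. Among single-library folds, 324 of 454 kept their size. One library per condition limits all tests, the low members rest on 27 to 510 reads, and a missing island is no zero.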
